A study of Bos taurus with 24 samples.

Results

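The genes described here are the 100 whose transcript level differed most between individual Holstein bulls at a low overall level, many of them present in some testes and close to absent in others. They were chosen by the values themselves. The level of a gene was its counts per 1000000 counts of the library (CPM), and a gene was a candidate if it had 2 to 49 exon bins, a mean of at most 20 CPM over the 24 bulls, and at least 1 CPM in the bull with the third highest level. Of 24525 gene features, 7267 were candidates. The 100 members are those with the largest ratio of the third highest to the third lowest bull after 0.1 CPM was added to both, and member 1 to member 100 is their rank by that ratio. The rule did not use the diets. As the spread over all bulls chose the members, that spread is given as a description without a test.

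Testicular parenchyma was collected at 72 wk of age from 24 bulls, with 8 separate animals in each of 3 groups. Feed of the HD calves held 20.0% crude protein (67.9% total digestible nutrients), that of the MD calves, the control, 17.0% (66.0%), and that of the LD calves 12.2% (62.9%). Per the methods, each diet began with milk, most for HD and least for LD calves, before a transition to these feeds. The diets were fed from 2 wk of age until 32 wk (31 wk in another sentence of the methods), and all bulls then received the MD, so the groups shared breed, later diet and age at collection. A stranded mRNA library was made from each bull and sequenced as single-end reads of 75 bases.

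Testicular parenchyma is a mixture. It holds seminiferous tubules, in which germ cells mature into sperm beside Sertoli cells, and the tissue between them with Leydig cells, vessels and immune cells. The testis is known for transcribing a large part of the genome, much of it at low levels and much of it in meiotic and later germ cells. In such bulk tissue, fewer cells that use a gene and less RNA per cell cannot be told apart. The files name genes by Ensembl identifier and were not paired with symbols here, so the roles of the members, their positions and sequences, and the markers of testicular cell types were not analysed. Only 4 identifiers are printed, and the other members are given by rank.

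The libraries held 9163675 (HD bull 14) to 21902110 (HD bull 11) counts, so that 1 CPM stood for 9.16 to 21.9 counts, and the limit that a count of 0 allows, 3 counts, was 0.137 to 0.327 CPM. Over the members, the raw count of the third highest bull was 13 at the lowest, 55 in the median and 716 at the highest. MD bull 6 stood apart from the other libraries. Its reads outside exons were 21.4% of bin counts plus unassigned reads, against 9.54% to 16.5% in the rest. HD bulls 8 and 12 had the largest shares of low-quality alignments, 17.9% and 20.99%, and the lowest share was 6.63%.

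The ratio that chose the members was 10.3-fold at the limit, 15.05-fold in the median and 177-fold for member 1, with 0.1 CPM added, and the median candidate had a ratio of 2.36-fold. The last member taken had 16.1 CPM in the third highest and 1.46 CPM in the third lowest bull, and the next candidate had 8.36 and 0.732 CPM. Mean levels of the members ran from 0.237 to 18.4 CPM with a median of 1.59 CPM, below the candidates' median of 5.20 CPM. A bull with 0 counts was seen for 64 members, against 3.25% of the candidates. Members 14, 25 and 27 had 0 counts in 19, 18 and 12 bulls, respectively.

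Not every member was switched off somewhere. The number of bulls at or above 1 CPM ran from 3 to 24 for a member, with a median of 10. The level was at or above 1 CPM in fewer than 12 bulls for 55 members and in more than 12 for 44. Members 50, 76, 98 and 99 were above 1 CPM in all 24 bulls, member 98 between 1.05 and 47.8 CPM, so they graded between high and low without being absent. Presence crossed the diets for most members, since 78 reached 1 CPM in at least 1 bull of every diet and 80 were below it in at least 1 bull of every diet. No HD bull reached 1 CPM for 16 members, no MD bull for 3 and no LD bull for 7, against 2.30%, 0.482% and 0.839% of the candidates, whose levels were higher. With CPM over TMM-normalized library sizes, which adjust for the makeup of a library, these numbers of members were 15, 7 and 8 and the shares of candidates 1.87%, 1.11% and 1.36%.

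**Figure D1:**
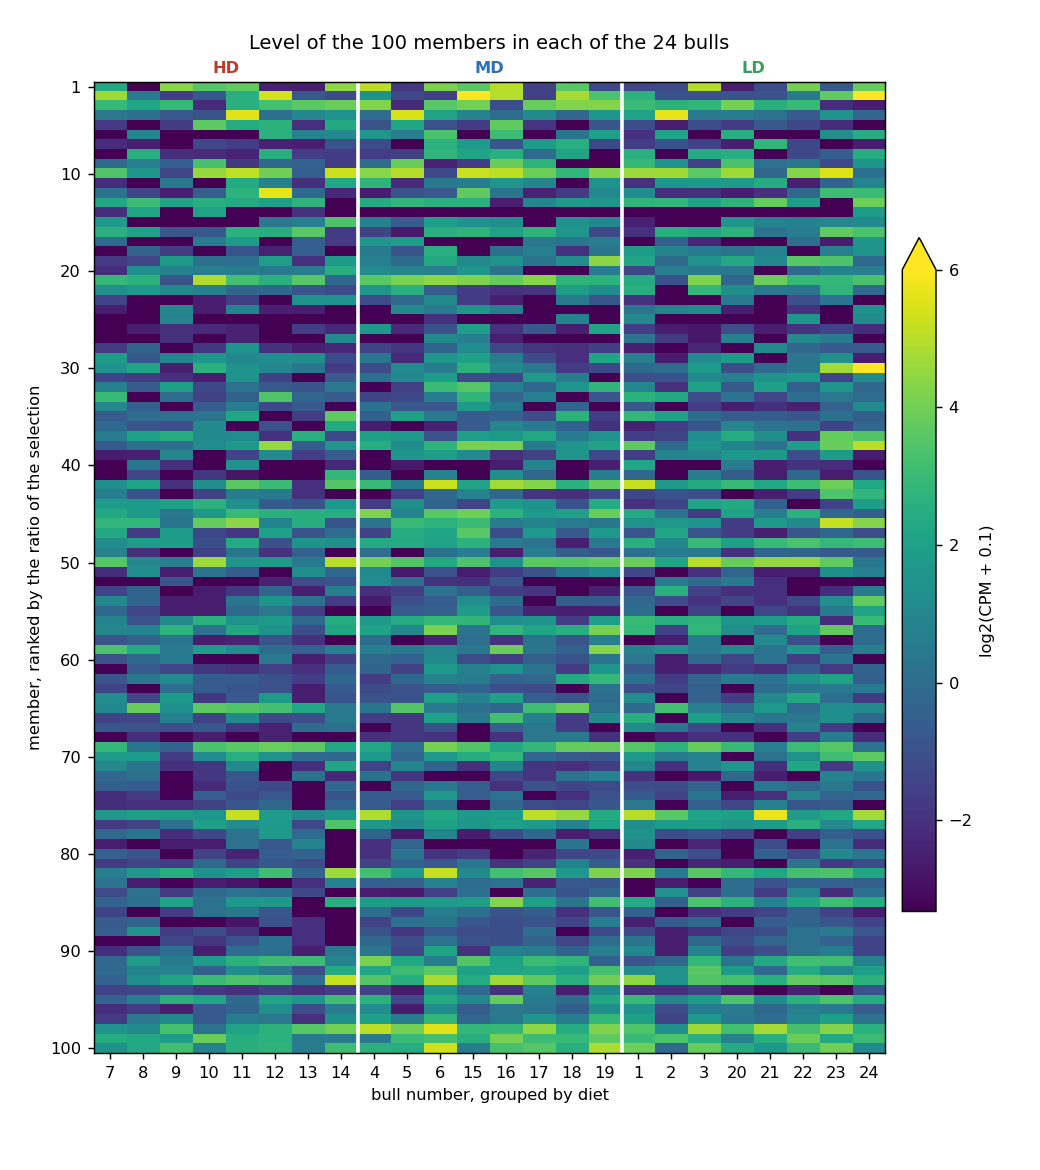
Level of each of the 100 members (rows, ordered by the ratio that chose them) in each of the 24 bulls (columns, grouped by diet), as log2(CPM + 0.1), with values above 6 drawn in the same colour. Dark cells mark bulls near 0 counts, and they fall in different columns from row to row and in every diet, as for the 64 members with a bull at 0 counts.

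For some members the bulls fell into a low and a high set with nothing in between. To describe this, the 24 levels of a member were sorted on the log2(CPM + 0.1) scale, and the widest gap between neighbouring bulls was taken with at least 2 bulls on either side. The gap was at least 2 on that scale for 17 members and at least 1 for 54, whereas 0.275% and 2.53% of the candidates had such gaps. The median gap was 1.06 for the members and 0.30 for the candidates. These are the values that chose the members, so nothing is read from the difference. Of the 17 members with a gap of at least 2, 11 were high in the smaller number of bulls and 6 were high in most.

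Member 4, ENSBTAG00000000835, was high in 1 bull of each diet. Its level was 50.4 CPM in LD bull 2, 47.4 CPM in HD bull 11 and 43.1 CPM in MD bull 5, a mean of 47.0 ± 3.69 CPM (SD, n = 3). In the other 21 bulls it lay between 0.431 and 4.02 CPM, with a mean of 1.60 ± 1.08 CPM (SD). The 3 high bulls thus lay close to each other, within 1.17-fold, and across a 10.5-fold gap from the next bull. By diet the lowest, median and highest levels were 0.431, 1.095 and 47.4 CPM in HD, 0.798, 1.88 and 43.1 CPM in MD, and 0.541, 1.39 and 50.4 CPM in LD bulls. The 3 diets overlapped over nearly the whole range.

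Member 5, ENSBTAG00000014439, was high in 6 bulls, of which 4 were HD and 2 MD bulls. The levels were 13.1 CPM in MD bull 16, 12.9 in HD bull 10, 6.19 in HD bull 12, 5.39 in HD bull 11, 4.91 in HD bull 14 and 4.51 in MD bull 5. The other 18 bulls, including all LD bulls, were between 0 and 0.5002 CPM, with 59 counts in all. No LD bull was above the gap, but 4 HD and 6 MD bulls were as low as the LD bulls. The gene did not pass the filter on low counts and was not tested between the diets.

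Member 1, ENSBTAG00000000597, divided the bulls nearly evenly. It was high in 13 bulls, at 5.09 to 33.4 CPM with a mean of 18.4 ± 8.74 CPM (SD), and low in 11, at 0 to 0.531 CPM with a mean of 0.228 ± 0.161 CPM. The 11 low bulls held 35 counts together and the 13 high bulls 3522. High bulls numbered 5 in HD, 5 in MD and 3 in LD. By diet the lowest, median and highest levels were 0, 8.36 and 21.5 CPM in HD, 0.181, 11.99 and 33.4 CPM in MD, and 0.0720, 0.444 and 30.5 CPM in LD bulls. The LD median was low because only 3 LD bulls were on the high side, and these, at 14.03, 16.4 and 30.5 CPM, were within the range of the high bulls of the other diets.

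Member 3, ENSBTAG00000037896, had the opposite shape, present in most bulls and nearly absent in 5. The low bulls were LD bull 24 at 0.0678 CPM, MD bull 5 at 0.120, HD bull 10 at 0.123, LD bull 23 at 0.133 and MD bull 16 at 0.371 CPM. The other 19 bulls ranged from 4.72 to 19.1 CPM, with a mean of 11.2 ± 4.997 CPM (SD). By diet the lowest, median and highest levels were 0.123, 7.57 and 14.7 CPM in HD, 0.120, 15.48 and 19.1 CPM in MD, and 0.0678, 6.70 and 16.5 CPM in LD bulls. Each diet thus held at least 1 bull on either side of the gap.

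**Figure D2:**
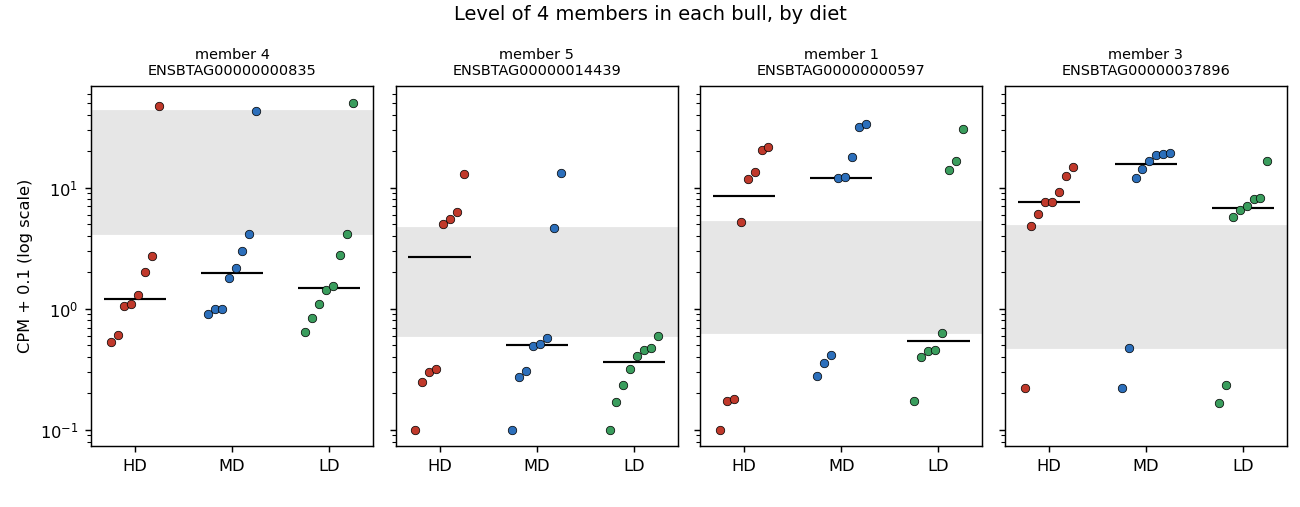
Level of members 4, 5, 1 and 3 in each bull as CPM + 0.1 on a log axis, with 1 point per bull (n = 8 per diet), a line at the median of each diet and a grey band over the widest gap. For members 4, 1 and 3 every diet has bulls above and below the band, and for member 5 the LD bulls all lie below it.

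Other members with a wide gap were as sharply divided at lower levels. Member 14 was present in HD bull 8 (4.44 CPM), HD bull 10 (4.07 CPM) and LD bull 24 (3.39 CPM), and the other 21 bulls had 4 counts together. Member 25 was present in 5 bulls (LD bulls 1, 22 and 24, HD bull 9 and MD bull 18) at 1.67 to 2.94 CPM, with 2 counts over the other 19. Member 13 was the reverse, at 1.80 to 15.3 CPM in 21 bulls and with 1 count in HD bull 14, MD bull 16 and LD bull 23 together. For these members the low side was at or under the limit of a count of 0, so that absence and a very low level could not be told apart.

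Some levels were close to uniform within the high set. Member 8 lay between 4.23 and 6.94 CPM in its 10 high bulls (mean 5.46 ± 0.780 CPM, SD), while the other 14 were at 0.856 CPM or less. As 96.7% of its counts lay in 1 exon bin, this describes that bin more than the whole gene. Member 26 was high only in MD bulls 4, 15 and 19, at 3.19 to 4.23 CPM. The lowest high bull and the highest low bull of member 7, which was high in 4 MD bulls (6, 15, 17 and 18) and LD bull 21, were at 3.21 and 0.445 CPM. By contrast, the 22 high bulls of member 42 spread from 1.38 to 37.6 CPM above HD bulls 9 and 13, which were both at 0.146 CPM.

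The division of the bulls changed from member to member. The 17 members gave 16 different divisions, the repeated one being LD bulls 23 and 24 against the rest, for members 30 and 43. Every bull was on the smaller side of at least 1 member, from 1 time for MD bull 4 and HD bull 7 to 7 times for LD bull 24. The high side held bulls of every diet for 11 members. The smaller side held bulls of a single diet for 4 members, namely 26, 30, 42 and 43, and bulls of every diet for 9.

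The counts of each exon bin were looked at to describe whether most of a gene or a single piece of it held the difference. An exon bin is a stretch of exon shared by the same transcripts, and the level of a gene was the sum over its bins. Members had 2 to 39 bins with a median of 9. They had 684 bins with at least 10 counts over the bulls, and 673 of these (98.4%) were higher in the 3 highest than in the 3 lowest bulls of the member. In 92 members this held for every such bin, among them members 14 and 15, which had only 1 such bin. The bulls were ranked on the same counts, so this is a description of where in the gene the difference lay.

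The odd- and even-numbered bins of a gene can also be set side by side. They are no independent check, since the rule used the sum of both and a read over neighbouring bins was counted in each. When the 3 highest and 3 lowest bulls were picked on the odd-numbered bins alone, the log2 ratio in the even-numbered bins was 3.58 in the median of the members and 1.33 in the median of the candidates. It was at least 2 for 90 members, below 1 for 4 and below 0 for member 71. The rank correlation of odd with even bins over the 24 bulls, which shared library, depth and such reads, was 0.86 in the median (candidates 0.79). It was at least 0.8 for 69 members and under 0.5 for members 8, 23, 43, 71, 78, 80, 86, 89 and 94.

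Members 1, 4 and 5 differed along the gene. Of the 26 bins of member 1, the first 3 held 1 count in all, and each of the 23 others was higher in the high bulls, for example 1.14 ± 0.512 CPM (SD, n = 13) against 0.00712 ± 0.0236 CPM (n = 11) in bin 19. Bins 1 to 8 of member 4 were each higher in the high bulls, bin 1 at 13.9 ± 2.81 CPM (SD, n = 3) against 0.586 ± 0.374 CPM (n = 21). Bins 9 and 10 of that member held 15 and 11 counts over all bulls. In member 5 the difference ran from bin 2 to bin 13, with 1.13 ± 0.567 CPM (SD, n = 6) against 0.0158 ± 0.0304 CPM (n = 18) in bin 10.

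**Figure D3:**
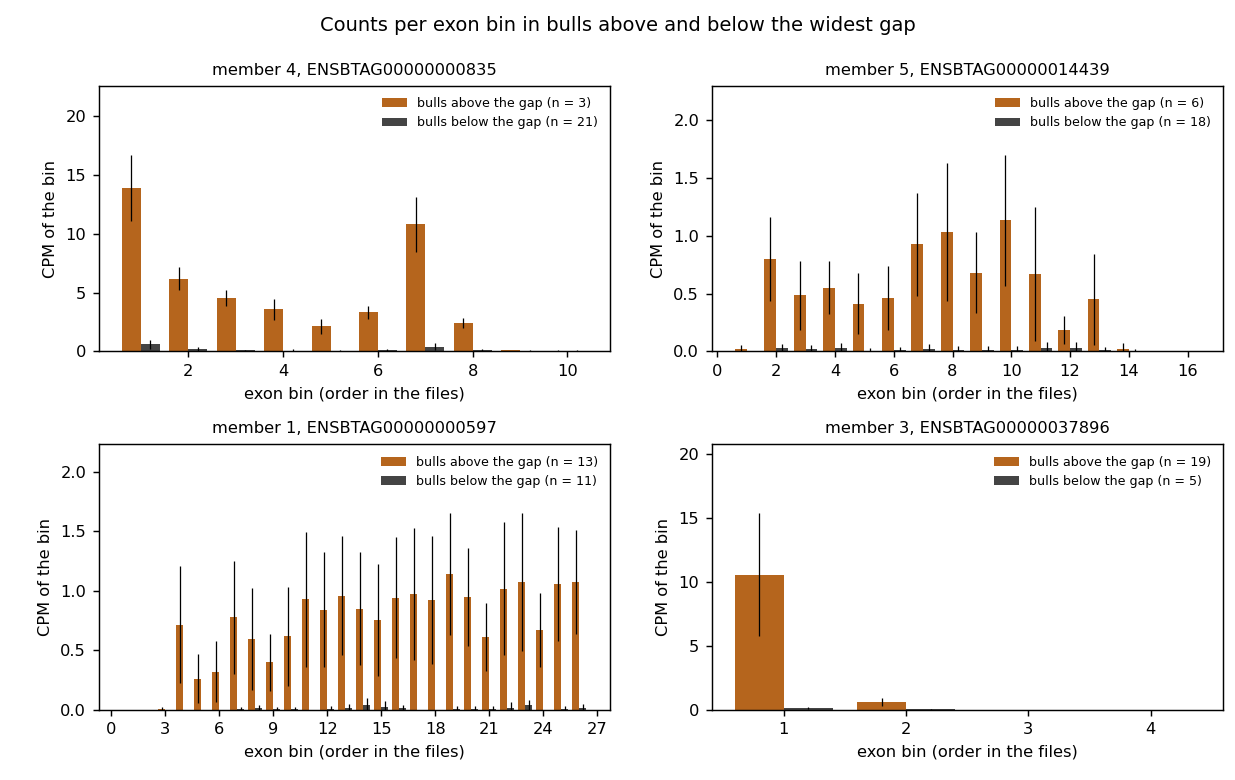
Mean level of each exon bin (CPM, SD as error bars, drawn down to 0 at most) in the bulls above and below the widest gap, for members 4, 5, 1 and 3, with bins in the order of the files. The difference covers nearly all bins with counts in members 4, 5 and 1, and in member 3 it covers bins 1 and 2, of which bin 1 held 94.4% of the counts.

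In some members most counts lay in a single bin. The most covered bin held over 90% of the counts of 7 members, namely 3, 8, 14, 15, 21, 43 and 71, and 5 of these (3, 8, 14, 21 and 43) were among the 17 with a wide gap. It held over 50% in 33 members, against 28.4% of the candidates. With the most covered bin left out, the bulls were ranked anew on the remaining bins. The ratio then does not show that the same bulls stayed high or low. The median log2 ratio of the third highest to the third lowest bull was 3.48. It was at least 2 for 94 members and under 1 for member 14 alone, against 1166 and 1747 of the 7267 candidates. Of the 7 members, the ratio on the remaining bins was 3.30 for member 3, 2.26 for member 21, between 1.37 and 1.75 for members 8, 15, 43 and 71, and 0.00 for member 14. For members 8 and 71, the even-bin log2 ratio between bulls picked on the odd-numbered bins was only 0.385 and -0.89. In bin 2 of member 3 the 19 high bulls had 161 counts and the 5 low bulls 2. Of the 17 members with a wide gap, 10 had an odd-to-even correlation of at least 0.8.

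The number of members at or above 1 CPM differed from bull to bull. It was 28, 41.5 and 56 (lowest, median, highest) in HD bulls, 43, 53 and 68 in MD bulls and 38, 52.5 and 57 in LD bulls. The means were 42.5 ± 7.98, 53.0 ± 7.98 and 50.3 ± 5.85 (SD, n = 8 each), and the diets overlapped. HD bull 13 had the fewest and MD bull 6 the most. With CPM over TMM-normalized library sizes the medians were 43.5, 51 and 51, a smaller distance between HD and the other diets. Summed over the members, HD bulls had 251 ± 96.5 CPM, MD bulls 376 ± 86.9 CPM and LD bulls 339 ± 103 CPM (SD, n = 8 each). No test was made on these sums, since they add up members chosen for their spread.

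MD bull 6 was the highest of the 24 bulls for 20 members, followed by LD bull 23 with 9. HD bull 9, MD bull 17 and LD bull 20 were the highest for none. At the other end, LD bull 2, HD bull 13 and HD bull 9 were among the 3 lowest bulls for 33, 32 and 31 members, and MD bull 6 for 8. No bull was always high or always low, as even MD bull 6 was among the lowest for some members.

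The share of reads outside exons was also lower in HD bulls. Its mean for HD bulls was 12.3 ± 2.17%, for MD bulls 14.5 ± 3.28% and for LD bulls 13.3 ± 1.83% (SD, n = 8 each), with MD bull 6 highest in both measures. Among the members 15 had a rank correlation of at least 0.6 with that share over the 24 libraries, or 15%, below the 25.8% of candidates. None had one of -0.6 or lower, and the range was -0.60 to 0.94 with a median of 0.19 (candidates 0.32). Without these 15, HD bulls had a mean of 35.4 ± 6.09 of the other 85 at or above 1 CPM, MD bulls 42.4 ± 5.999 and LD bulls 40.5 ± 4.11, with HD again lowest. The share of low-quality alignments had a mean of 11.5 ± 5.18% for HD, 7.80 ± 1.33% for MD and 8.24 ± 1.82% for LD bulls (SD, n = 8 each). HD bulls 8 and 12 raised the HD mean, and the medians were 9.94%, 7.29% and 7.64%. The part of either share in the count was not tested. Library size had a correlation of at least 0.6 with member 46 alone (0.65), and the median over the members was -0.03.

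**Figure D4:**
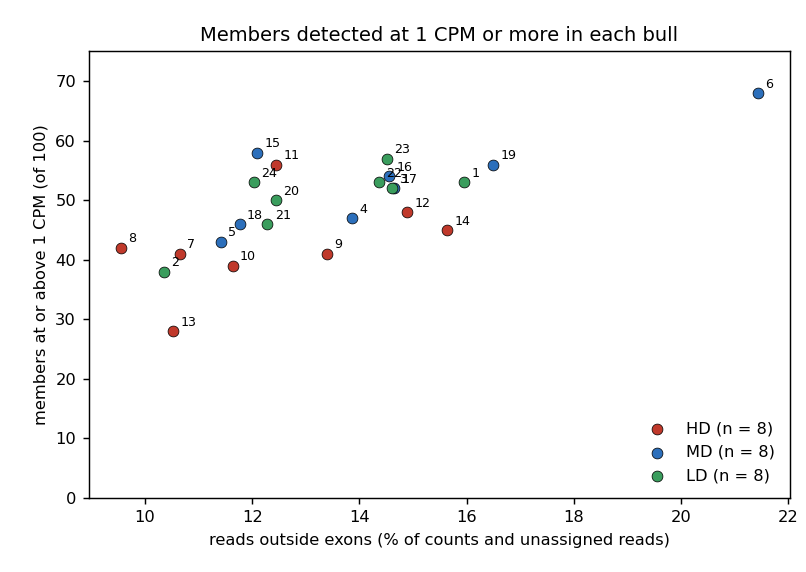
Number of the 100 members at or above 1 CPM in each bull (vertical axis) against the share of its reads outside exons in percent (horizontal axis), with 1 numbered point per bull and 8 bulls per diet. MD bull 6 has the most members, 68, and the largest share, 21.4%, and HD bull 13 has the fewest members, 28.

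Most pairs of members were only weakly correlated. Over all 4950 pairs of members the median rank correlation over the 24 bulls was 0.07, against 0.14 over the pairs of candidates. A correlation of at least 0.8 was found in 24 pairs (0.485%, candidates 0.843%) and one of -0.6 or lower in 8 pairs (0.162%, candidates 1.16%). The points of each pair share library and depth. Linking pairs at 0.8 or above gave a group of 9 members, a group of 4 and 3 pairs.

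The group of 9 comprised members 41, 42, 57, 82, 90, 93, 96, 97 and 100, with correlations of 0.51 to 0.95 between them. Their median level was highest in MD bull 6 at 17.8 CPM, MD bull 19 at 13.9 CPM and LD bull 23 at 10.6 CPM, and lowest in LD bull 2 at 0.345 CPM, HD bull 13 at 0.366 CPM and HD bull 7 at 0.669 CPM. High and low bulls came from more than 1 diet. All 9 were among the 15 members that went with the share of reads outside exons, with correlations of 0.67 to 0.94. All 9 were tested between the diets. For HD against MD edgeR called none of them and 14.1% of all features, while DESeq2 called member 97, lower in HD, and 2937 of the 15005 features tested. Of the 9 edgeR estimates 8 were below 0, and 2 had an unadjusted p under 0.05, against 29% of all features. Neither tool called any of the 9 between HD and LD bulls, where edgeR called 0% of all features and DESeq2 539 of the 15005. Between MD and LD bulls neither tool called any of the 9 or any other feature. In edgeR 0 of the 9 had an unadjusted p under 0.05 in either comparison. The shares of all features were 17.7% between HD and LD and 1.07% between MD and LD bulls.

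The group of 4 comprised members 12, 43, 54 and 55, with correlations of 0.77 to 0.84. Their median was 7.502 CPM in LD bull 24, 4.38 CPM in LD bull 23, 2.82 CPM in MD bull 15 and 1.86 CPM in HD bull 12, and at or below 0.0446 CPM in MD bull 4, LD bull 20 and HD bull 14. Here the correlation with the share of reads outside exons was -0.11 to 0.10. Member 12 reached 49.7 CPM in HD bull 12, its highest value. Member 2 went with members 54 and 12 at 0.76 and 0.73, below the limit for linking, and its highest levels were 97.2 CPM in MD bull 15, 83.9 CPM in LD bull 24 and 40.6 CPM in HD bull 12.

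**Figure D5:**
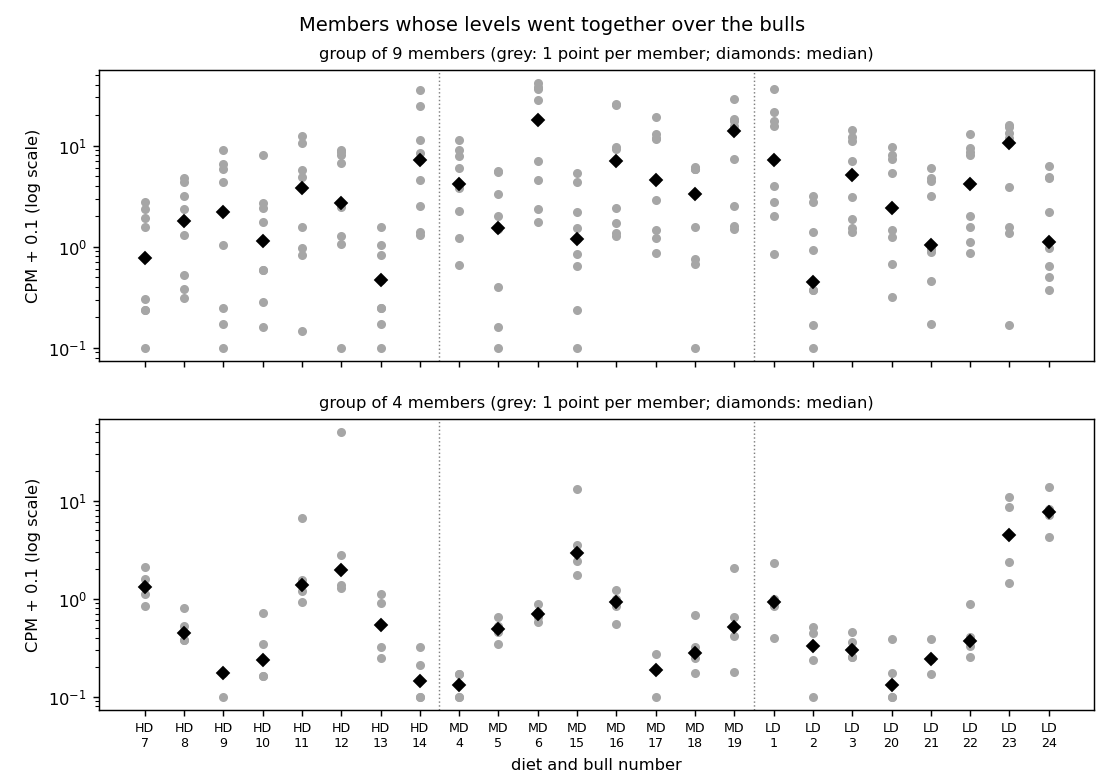
Levels of the group of 9 members (top) and the group of 4 members (bottom) in each bull, as CPM + 0.1 on a log axis, with 1 grey point per member and a diamond at the median. The top group is highest in MD bull 6 (median 17.8 CPM) and the bottom group in LD bull 24 (median 7.502 CPM).

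The 3 further pairs were members 15 and 83 (0.85), 30 and 46 (0.84), and 51 and 72 (0.83). Members 30 and 46 were both high in LD bulls 24 and 23, at 102 and 26.1 CPM for member 30 and 19.7 and 36.4 CPM for member 46, for which HD bull 11, at 20.5 CPM, lay between them. Member 43 had its 2 highest levels in the same animals, 10.8 CPM in LD bull 23 and 6.98 CPM in LD bull 24, and member 3 was nearly absent from both. Opposite patterns were weaker, the lowest correlation being -0.68, for member 65 with members 85 and 95. Member 3 had -0.65 with member 30 and -0.63 with member 46.

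The design compares the 3 diets, and the question is whether feeding in calfhood left a difference in the testis at 72 wk. Of the 100 members, 71 passed the filter on low counts and were tested among 15005 features with edgeR's quasi-likelihood test, a call being an adjusted p under 0.1. Of the 71, 2 were called between HD and MD bulls (2.82%), against 14.1% of all features tested. Both were lower in HD and none was higher, whereas 5.42% of all features were called lower and 8.68% higher. With library size alone as the scale, 0 of the 6 members called and 542 of the 3547 features called were higher in HD. With DESeq2 it was 1 of 5 members and 1808 of 2937 features. At an unadjusted p under 0.05 there were 7 members (9.86%), against 29% of all features. The estimated log2 fold change was below 0 for 45 and above 0 for 26, with a median of -0.39 for the members and 0.00 for all features. With 1 bull left out, the members' median ran from -0.46 (without HD bull 14) to -0.21 (without MD bull 4). It was -0.57 with library size alone as the scale, where the median of all features was -0.21. When the fit held the share of reads outside exons, it was -0.15. The calls over all features depended on single bulls and on the fit. With that share in the fit, 1 of the 15005 features and 0 members were called. Without MD bull 4, 6, 16, 17 or 19 or HD bull 7, 8 or 13, 1 feature and 0 members were called in each fit, and without any other bull 1613 to 4019 features and 1 to 8 members.

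Member 92 was the clearer of the called members. Its lowest, median and highest levels were 0.366, 1.43 and 5.13 CPM in HD bulls, 3.70, 4.67 and 12.3 CPM in MD bulls and 0.786, 2.90 and 12.02 CPM in LD bulls. The MD bulls were all above 7 of the 8 HD bulls, HD bull 14 being the exception. The log2 fold change of HD against MD was -1.68 (SE 0.46, edgeR adjusted p = 0.0702). Its correlation with the share of reads outside exons was 0.51, and the change was, with that share in the fit, -1.39 (edgeR adjusted p = 0.191).

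Member 18 was near absent in the HD bulls. It ranged from 0 to 0.704 CPM in HD with a median of 0.149 CPM, from 0 to 5.76 CPM in MD with a median of 1.03 CPM, and from 0 to 3.35 CPM in LD with a median of 1.59 CPM. Above the highest HD bull lay 5 of the 8 MD and 7 of the 8 LD bulls, so the groups overlapped. The log2 fold change was -2.08 against MD (SE 0.76, edgeR adjusted p = 0.0912). Without MD bull 6, the highest bull, it was -1.34 (edgeR adjusted p = 0.287), and, once the fit held the share of reads outside exons, it was -1.19 (edgeR adjusted p = 0.497).

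Between HD and LD bulls no member was called by edgeR or by DESeq2, and 0% of all features were called by edgeR, whereas DESeq2 called 539 of the 15005. At an unadjusted p under 0.05 there were 7 members (9.86%), against 17.7% of all features. The smallest p belonged to member 18, with a log2 fold change of -2.44 (SE 0.75, edgeR adjusted p = 0.206). Member 30 had -2.66 (SE 0.96, edgeR adjusted p = 0.206), with LD bulls 23 and 24 above all HD bulls and the other 6 LD bulls within their range. Without LD bull 24 its change was -0.72 (edgeR adjusted p = 0.617), and DESeq2 gave -0.61. Member 65 had 1.64 (SE 0.67, edgeR adjusted p = 0.226), with 4 HD bulls above all LD bulls. With 1 bull left out, its change ran from 1.36 to 2.33. As both comparisons use the same HD bulls, the values of member 18 against MD and LD are not independent.

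No member was called between MD and LD bulls by edgeR or DESeq2, and 0% of all features were called by edgeR. There were 7 members (9.86%) at an unadjusted p under 0.05, against 1.07% of all features. The rule chose members for spread over all bulls, which takes in any distance between MD and LD bulls, so nothing is read from this excess. Member 45 had the smallest p, with 1.69, 9.38 and 18.4 CPM (lowest, median, highest) in MD and 0.205, 1.27 and 6.03 CPM in LD bulls. The estimate for this member was 1.96 on the log2 scale (SE 0.53, edgeR adjusted p = 1.00), and 5 of the 8 MD bulls were above all LD bulls. Members 30 and 47 followed with -3.34 (SE 1.00) and 1.99 (SE 0.79), each with an edgeR adjusted p of 1.00. With 1 bull left out, member 30 ran from -4.05 to -1.41 (without LD bull 24) and member 47 from 1.38 to 3.17 (without LD bull 2). DESeq2 gave -1.30 for member 30.

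Of the 17 members with a gap of at least 2, members 5, 7, 14, 25, 26 and 40 did not pass the filter on low counts and were not tested, and none of the other 11 was called between any diets by edgeR or DESeq2, against 14.1% of all features by edgeR for HD against MD and 0% for the other comparisons. DESeq2 called 2937 of the 15005 features between HD and MD, 539 between HD and LD, and 0 between MD and LD bulls. At an unadjusted p under 0.05 edgeR gave 0 of the 11 between HD and MD (29% of all features), 1 (member 30) between HD and LD (17.7%), and 2 (members 30 and 43) between MD and LD bulls (1.07%). The MD against LD share is not read as an excess, since the rule chose members for spread over all bulls. Member 1 had log2 fold changes of -0.40 (SE 1.04, edgeR adjusted p = 0.817) against MD and 0.35 (SE 1.05, edgeR adjusted p = 0.878) against LD for the HD bulls. Members 3 and 4 had edgeR adjusted p of 0.687 and 0.955 for HD against MD. In these members, bulls of the same diet fell on both sides of the gap. The biological coefficient of variation, the spread between bulls of a diet that edgeR estimates, was 0.945 in the median of the 71 members and 0.274 over the 15005 features. The members were chosen for their spread between these bulls, so nothing is read from this difference.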

How the data were processed

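Poly(A) mRNA libraries of testicular tissue from 24 bulls were sequenced. Per the labels and methods, the authors mapped reads with TopHat 2.0.10 and Bowtie 1.1.2 to UMD3.1 after base calling with CASAVA 1.9. The authors deposited read counts per exon bin, not normalized; the file names carry the word dexseq, as for counts made with DEXSeq's script, and the version and use of strand are not given in the sources used here. A read over several bins is counted in each.

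Gene counts were summed over 210707 bins, and CPM used the sum over genes. Features joining overlapping genes (87) were not eligible, and 4 identifiers were left out by rule, none among the first 100. Rows of unassigned reads stayed out of library sizes and gave the shares of reads outside exons and of low-quality alignments. Both shares are percentages of the bin counts plus all unassigned reads. Reads counted in several bins therefore lower them. Diets were compared with edgeR 4.0.16 in R 4.3.3 (TMM, filterByExpr, glmQLFit, glmQLFTest, all 24 bulls, Benjamini-Hochberg adjustment), with DESeq2 1.42.0 as an alternative. The standard error was the log2 fold change over the square root of F. Rank correlations are Spearman's, in Python 3.11.15 with scipy 1.17.1. The edgeR step was tested on simulated data.

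Members and lists were chosen with earlier results of these data known. Each bull was 1 replicate, and depth limits cover counting error only. Named singly were members called between diets (or, with none called, the 3 with the smallest p), members of correlated groups, and, among members with a gap of at least 2, the 2 identifiers with the largest ratio high in up to 12 bulls and the 2 high in more; all other members were named after their values were seen. Gene lists by function, cell type markers and neighbouring members need symbols or positions and were not analysed here. Alternatives were other normalizations, filters, thresholds, pseudocounts, DESeq2, robust fitting, fits with 2 diets or a covariate, and each bull left out.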

Additional observations from a re-analysis of the deposited data

Results flagged for a closer look

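Within the 8 bulls of a diet, a bull was looked at again when its distance to the nearest other bull was a large share of the group's range. Such a check was made on 39 groups of values, for which chance gives about 1.95, and it picked out 6. The members were chosen for a wide spread, so the picks among them follow in part from the choice.

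LD bull 3 had the largest library of its diet, 19470903 counts, against 15065648 in the next. Member 4 was far above the rest of the diet in 3 bulls: HD bull 11 at 47.4 CPM (next 2.62), MD bull 5 at 43.1 CPM (next 4.02) and LD bull 2 at 50.4 CPM (next 4.01). Member 3 was low in HD bull 10, at 0.123 CPM, with the next HD bull at 4.72 CPM. Member 18 was at 0 CPM in LD bull 22, with the next LD bull at 1.01 CPM.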

How the results depend on the processing

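The members called between HD and MD bulls, 2 in the fit reported, were 6 with library size alone as the scale (3547 of all features called, against 2116 in the fit reported), 5 with DESeq2 (2937), and 0 without a filter on low counts, when the reads outside exons entered as a covariate or with only the 2 diets in the fit (1 feature called in each). In these fits the calls over all features moved in the same direction as those of the members. The count was 2 with DESeq2's size factors in edgeR or robust fitting, and 0 to 8 with 1 bull left out (1 to 4019 features). It was 8 without HD bull 14 (3596 features), 6 without HD bull 9 (2911), and 5 without HD bull 12 (4019) or MD bull 5 (3093). The count was 4 without HD bull 11 (3164 features) or MD bull 18 (3600). Without MD bull 15 it was 5, with 1 of them higher in HD, while the features called fell to 1613. Scaling by library size moved the median change over all features, on the log2 scale, to -0.21 (HD against MD) and -0.17 (HD against LD). The count between HD and LD bulls was 0 to 2 with 1 bull left out, 2 only without HD bull 12, where 716 of 15075 features were called. Between MD and LD bulls it was 0 in every fit run. Apart from that scaling shift, the cause of these changes was not tested.

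Member 92 kept its direction in all fits, at -2.12 to -1.53 with 1 bull left out, and lost its call in 8 of the 24 of these fits and in those without a filter (adjusted p = 0.101, edgeR), with the covariate or with 2 diets (0.146). Member 18 was at -2.52 to -1.34 and lost its call in 13 of the 24. It was not tested with 2 diets, as it did not pass the filter there.

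Of the 100 members, 46 were found again with a pseudocount of 1 CPM, 61 with the most covered bin alone, and 73 to 94 under the other choices of rule. The median number at or above the threshold per bull, 49 at 1 CPM, was 61 at 0.5 CPM, 34.5 at 2 CPM and 38.5 when only the 85 members with a correlation under 0.6 with the share of reads outside exons were counted, a choice made after seeing the data. The 17 gaps of at least 2 became 2 with log2(CPM + 1), by construction of the larger pseudocount, and stayed 17 without HD bull 14 or without MD bull 6. No paired analysis was possible because the labels give no shared replicate numbers.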
